A study of Mus musculus with 8 samples.

Results

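The cell cycle genes described here are 40 genes named by symbol, 15 that act in S phase (DNA replication and its licensing, and the G1/S cyclins) and 25 that act in mitosis (the G2/M kinases and cyclins, the spindle, the kinetochore and chromosome condensation). They were taken by name from the 23282 gene rows of each count table, and all 40 were found. No value was used to pick them from the rows, but the set was chosen with earlier results of these data known. RNA had been sequenced from liver and uterus of ovariectomized female CD-1 mice, an outbred stock, operated on at 6 weeks of age and then rested for 1 week. Ovariectomy removes the main source of estrogen, and every library, controls included, comes from operated animals.

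Each tissue has 4 groups, dosed by mouth every day for 7 days. Control mice received neither agent. BPA mice received bisphenol A, a building block of plastics with weak estrogenic activity, at 200 mg/kg/day. KRG mice received Korean red ginseng at 1.2 g/kg/day, and the last group received both at these doses. The series asks whether ginseng alters what BPA does to these tissues. Each of the 8 groups has 1 library. Neither the number of animals behind a library nor a link between livers and uteri of the same animals is in the labels. A difference between 2 libraries therefore has no replicate check, and the counting intervals given below cover counting error only. Library totals ran from 12372073 to 15290950 counts, and levels are given as CPM (counts scaled to the library total). Runs of 4 values are for control, BPA alone, KRG alone and the combination.

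Proliferating cells license their replication origins in G1 by loading the MCM2 to MCM7 helicase with the help of CDC6 and CDT1, and copy the DNA in S phase with PCNA as the sliding clamp. Transcription of these genes is driven largely by E2F factors. The mitosis genes are held off before that by the DREAM complex and are switched on later, in G2, chiefly through MYB-MuvB and FOXM1. These complexes act at promoters with a cell cycle homology region (CHR), often beside CCAAT boxes bound by NF-Y. In the uterus, estrogen is the classical signal for division of the epithelium. Adult liver is largely quiescent.

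The promoters of the members were searched for the letters of these sites. RefSeq promoter windows (250 bases before to 50 after the start, build GRCm38.p6) matched 31 of the 40 members, 12 of S phase and 19 of mitosis, and were searched on both strands. The motifs were the CHR (TTTGAA or TTCGAA), the CCAAT box (CCAAT) and an E2F site (TTTCCCGC, TTTGGCGC, TTTCGCGC or TTTGCCGC). A CHR lay in 15 of 19 mitosis promoters and 2 of 12 S phase promoters, against 21.7% of all 27025 genes with a window. An E2F site lay in 6 of 12 S phase promoters (Cdc6, Cdt1, Mcm3, Mcm5, Mcm6 and Mcm7) and 1 of 19 mitosis promoters (Cdk1), against 2.61% of all genes. CCAAT boxes lay in 17 of 19 mitosis promoters and 8 of 12 S phase promoters, against 41.1% of all genes, and a CHR together with a CCAAT box in 15 of 19, 2 of 12 and 8.61%. A match is a description of the letters, not evidence of a bound site.

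The stretches with the motifs are shown for 3 mitosis and 3 S phase members whose levels differed between the uterus libraries, so that the letters can be read beside the values. Capitals mark the motifs, on either strand, and a run longer than a single motif holds motifs that overlap. ATTGG is CCAAT read on the other strand, and TTCAAA is TTTGAA. Ube2c lies on the plus strand at chr2:164769819-164769928, Cdk1 on the minus strand at chr10:69352913-69353052 and Top2a on the minus strand at chr11:99024190-99024349.
Ube2c: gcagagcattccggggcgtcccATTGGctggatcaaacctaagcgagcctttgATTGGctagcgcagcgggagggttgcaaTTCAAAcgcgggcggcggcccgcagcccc
Cdk1: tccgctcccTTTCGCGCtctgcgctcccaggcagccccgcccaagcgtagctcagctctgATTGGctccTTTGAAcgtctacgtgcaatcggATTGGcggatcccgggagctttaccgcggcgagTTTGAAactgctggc
Top2a: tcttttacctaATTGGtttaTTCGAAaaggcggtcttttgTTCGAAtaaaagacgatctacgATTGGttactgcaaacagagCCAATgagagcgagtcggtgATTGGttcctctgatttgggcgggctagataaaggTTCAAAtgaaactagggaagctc
The S phase stretches are Mcm6 on the minus strand at chr1:128359706-128359825, Mcm5 on the plus strand at chr8:75109349-75109508 and Cdc6 on the plus strand at chr11:98908001-98908150.
Mcm6: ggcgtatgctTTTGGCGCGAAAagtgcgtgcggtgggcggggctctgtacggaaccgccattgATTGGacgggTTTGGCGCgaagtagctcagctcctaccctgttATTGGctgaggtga
Mcm5: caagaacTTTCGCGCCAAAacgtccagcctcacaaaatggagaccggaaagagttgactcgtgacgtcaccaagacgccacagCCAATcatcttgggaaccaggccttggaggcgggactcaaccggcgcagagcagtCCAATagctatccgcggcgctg
Cdc6: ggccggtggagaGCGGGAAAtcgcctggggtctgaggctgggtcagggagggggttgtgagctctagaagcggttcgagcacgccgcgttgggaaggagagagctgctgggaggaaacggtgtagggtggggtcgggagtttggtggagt
Ube2c and Top2a pair CHR with CCAAT letters and have no E2F site of the letters searched. Cdk1 has all 3 motifs. Mcm6 and Mcm5 join an E2F site to CCAAT boxes, and Cdc6 has the E2F letters alone.

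Members entered the ratios where their mean level in a tissue, over its 4 libraries, reached 1 CPM. In uterus 37 of 40 passed, all 15 of S phase and 22 of mitosis, and every member had counts in every uterus library. The 3 that did not pass there were Cdc25c (the CDK1 phosphatase, at most 1.09 CPM), Aurkb (the chromosomal passenger kinase, at most 1.08 CPM) and Bub1 (a spindle checkpoint kinase, at most 1.31 CPM). In liver 24 of 40 passed, 13 of S phase and 11 of mitosis, and between 1 and 6 members had no count in a library. Bub1 had no count in any liver library, and 3 counts correspond to 0.196 to 0.242 CPM at these depths.

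The labelled tissues carried their defining markers. Hoxa10 and Hoxa11, positional genes of the uterus, lay between 74.8 and 149 CPM in the uterus libraries and at 0 in all liver libraries, while 5 hepatocyte markers summed to 27669 to 29558 CPM in liver. The uterus libraries differed in markers of other cells. Summed CPM of 5 epithelial keratin and adhesion genes was 1888, 2852, 1280 and 3445, and of 5 bladder lining genes 190, 3551, 55.8 and 6737. Both sums were lowest with KRG alone and highest with both agents. Erythroid genes (7 measured) summed to 4945, 2241, 3699 and 802 CPM, neutrophil granule genes to 333, 204, 1270 and 205, and adipocyte genes to 3518, 2926, 6415 and 2238. Hepatocyte genes in uterus summed to 554, 40.7, 1162 and 54.7 CPM, with Cps1 at 0 in the BPA library. In liver, the erythroid sum was 3655, 7226, 5256 and 1756 CPM, and 5 acinar pancreas genes summed to 0.0654, 819, 4.59 and 3.15. The part of these markers in the member values was not tested.

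In uterus, S phase and mitosis genes did not follow the same order over the 4 libraries. Mitosis members were highest in the BPA library and lowest in the KRG library, whereas S phase members were highest in the control library. Summed over the 25 mitosis members the level was 434, 632, 302 and 567 CPM, and over the 15 S phase members 316, 203, 205 and 218 CPM. The mitosis sum divided by the S phase sum was 1.37 in control and 1.47 with KRG alone, against 3.12 with BPA and 2.60 with both agents. The libraries given BPA thus stood above the libraries without it in this quotient, which does not depend on the scaling of a library. Stmn1, which had another order, held 32.1, 37.5, 66.7 and 108 CPM of the mitosis sum. The quotient was not computed without it. In bulk tissue, fewer cells of a type and less RNA per cell cannot be told apart.

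**Figure D1:**
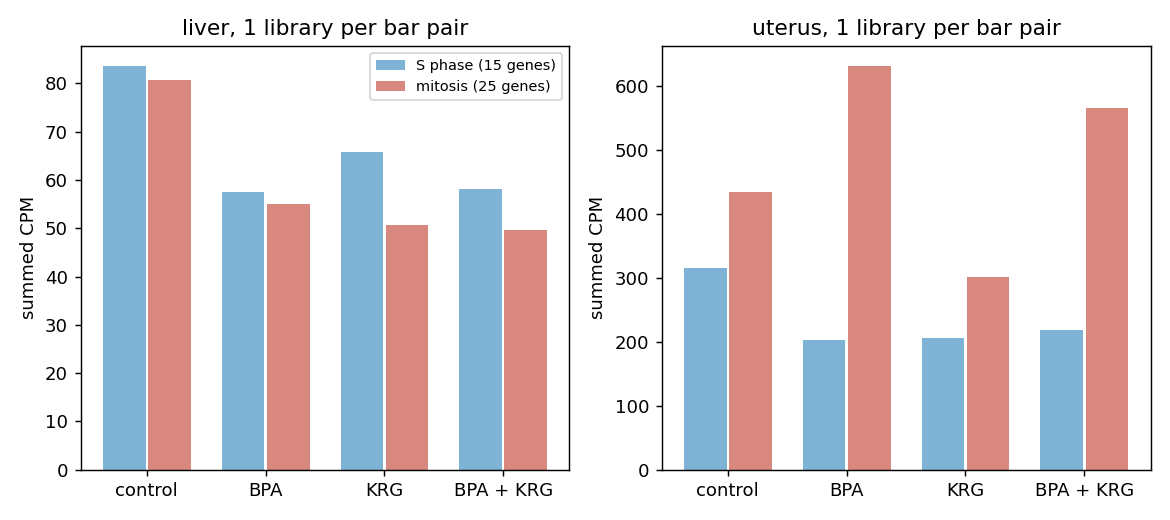
Summed CPM of the 15 S phase genes (blue) and the 25 mitosis genes (red) in each library, liver on the left and uterus on the right, 1 library per pair of bars. In uterus the mitosis sum was 632 CPM with BPA and 302 with KRG alone, while the S phase sum was highest in control, at 316 CPM.

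Among the mitosis genes, the proliferation marker Mki67 (the coat protein of mitotic chromosomes) was at 15.8, 28.1, 9.70 and 18.2 CPM in uterus. Top2a, the topoisomerase that untangles sister chromatids, was at 52.6, 67.8, 26.4 and 54.5 CPM. Cdk1, the kinase that drives entry into mitosis, was at 41.5, 56.8, 25.6 and 48.5 CPM. All 3 were highest with BPA and lowest with KRG, with the control and combined libraries between. Among the regulators of CDK1, cyclin B1 (Ccnb1) was at 5.83, 8.02, 1.85 and 6.56 CPM, and cyclin B2 (Ccnb2) at 1.42, 6.70, 1.92 and 2.57. Polo-like kinase 1 (Plk1), which acts on centrosomes and kinetochores, was at 16.4, 29.9, 6.24 and 29.3 CPM. Plk1 thus had nearly equal levels in the 2 libraries given BPA, while Ccnb2 was high in the library given BPA alone.

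Several kinetochore, spindle and anaphase genes, the 6 given next, were highest with BPA and lowest with KRG. Cenpf, an outer kinetochore protein, was at 25.1, 57.1, 12.7 and 29.6 CPM. Nusap1, which binds and bundles spindle microtubules, was at 23.4, 37.1, 8.62 and 24.8 CPM. Tpx2, the spindle assembly factor that activates Aurora A, was at 6.87, 9.84, 2.54 and 6.96 CPM. Each of these was above control with BPA and below it with KRG, and its combined library lay between those of BPA and KRG. Prc1, which bundles the midzone of the spindle, was at 7.47, 11.4, 3.08 and 8.72 CPM, and Kif11, the motor that separates the spindle poles, at 2.17, 4.52, 0.847 and 3.18. Ube2c, the ubiquitin-conjugating enzyme of the anaphase-promoting complex, was at 24.4, 43.1, 12.0 and 31.0 CPM.

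Ranks over the 4 libraries show how widely this order was shared. Of the 22 mitosis members passing, 20 were lowest in the KRG library, where 38.2% of all 14166 genes passing were lowest. The 2 others, Ccnb2 and Stmn1, were lowest in control. The BPA library was highest for 19 of the 22, against 26% of all genes, and the combined library for the other 3 (Aurka, Bub1b and Stmn1), against 29%. With TMM or DESeq2 scaling the count lowest with KRG was again 20, and the count highest with BPA was 18.

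Stmn1 departed from this order. It encodes stathmin, which destabilizes microtubules, and was at 32.1, 37.5, 66.7 and 108 CPM, higher in both libraries given KRG than in both without it. It was 2.07-fold higher with KRG than in control (counting interval 1.85 to 2.33) and 2.89-fold higher with both agents than with BPA (2.62 to 3.20). Among all genes, 0.0777% were at least 2-fold higher in both of these pairs, which share no library.

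**Figure D2:**
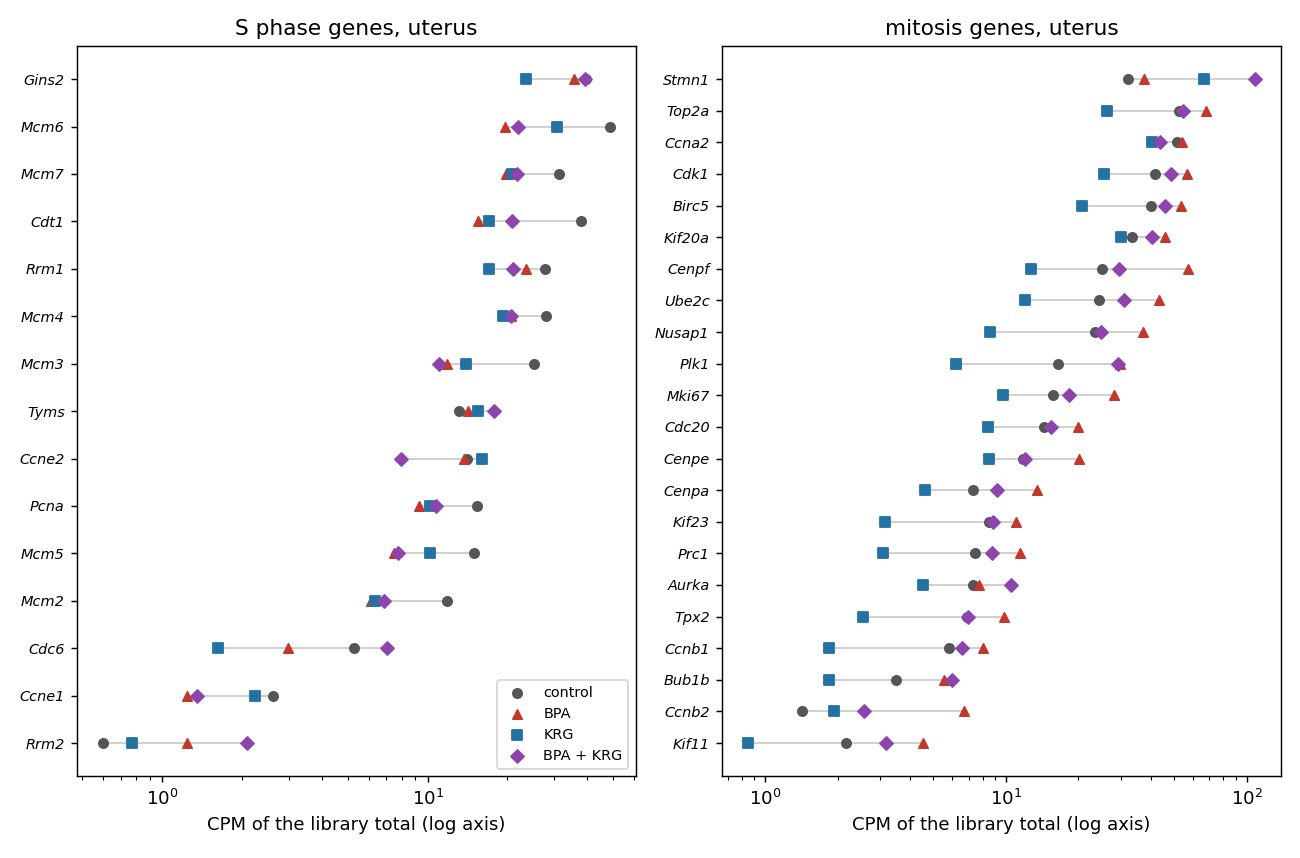
Level of each passing member in the 4 uterus libraries, in CPM on a log axis, S phase genes on the left and mitosis genes on the right, with 1 point per library. KRG (blue squares) is the lowest point for 20 of 22 mitosis genes, and control (grey circles) the highest for 11 of 15 S phase genes.

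The S phase genes of uterus were highest in control for 11 of 15 members, against 26.2% of all genes, and in no case highest with BPA (10 of 15 with TMM or DESeq2 scaling, and again none with BPA). All 6 subunits of the MCM helicase were among the 11. Mcm6 was at 48.8, 19.6, 30.9 and 22.0 CPM, Mcm3 at 25.3, 11.9, 14.0 and 11.0, and Mcm5 at 15.02, 7.51, 10.2 and 7.77. Mcm2 was at 11.9, 6.12, 6.31 and 6.83 CPM, with the 3 treated libraries close together and control apart. Mcm4 was at 27.9, 20.6, 19.2 and 20.5 CPM, and Mcm7 at 31.2, 19.7, 20.8 and 21.8. Pcna, the sliding clamp, was at 15.3, 9.26, 10.2 and 10.7 CPM, and so also had the treated libraries below control.

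The licensing factors differed from each other. Cdt1, which loads the helicase and is destroyed in S phase, was at 37.8, 15.4, 17.0 and 20.7 CPM, like the helicase subunits. Cdc6, its partner, was at 5.31, 2.99, 1.62 and 7.03 CPM, lowest with KRG and highest with both agents. Of the enzymes that supply deoxynucleotides, thymidylate synthase (Tyms) was at 13.2, 14.2, 15.5 and 17.8 CPM, and the ribonucleotide reductase subunits Rrm1 and Rrm2 were at 27.8, 23.5, 17.0 and 21.0 and at 0.598, 1.24, 0.770 and 2.09 CPM. Rrm2 passed the filter only through its highest library. Of the cyclins that start S phase, Ccne1 was at 2.62, 1.24, 2.23 and 1.35 CPM, lower in both libraries given BPA. Gins2, a subunit of the replicative helicase complex, was at 39.6, 35.6, 23.5 and 39.3 CPM.

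BPA can be compared with no BPA in 2 pairs of libraries that share none, without ginseng and with it. Ratios are on the log2(CPM + 1) scale, where differences of low genes come out too small. For all genes, shares beyond 2-fold were computed on that scale only. Shares on one side of 0 were computed over both pairs together, not for single pairs. All 22 mitosis members lay above 0 in both pairs, where 35% of all genes did. In BPA against control, 2 of the 22 were at least 2-fold higher, against 3.88% of all genes, and the median log2 ratio was 0.50, against 0.04 for all genes. They were Ccnb2 (4.72-fold, counting interval 2.86 to 8.20) and Cenpf (2.28-fold, 2.00 to 2.59). In both agents against KRG, 13 of 22 were at least 2-fold higher, against 8.36% of all genes, with a median of 1.08 against 0.07. Plk1 differed most, at 4.70-fold (3.70 to 6.04), followed by Kif11 at 3.75-fold (1.92 to 8.02) and Ccnb1 at 3.55-fold (2.25 to 5.80). On the log2(CPM + 1) scale, Cenpf alone was at least 2-fold higher in both pairs, against 2.66% of all genes. As a plain ratio of CPM, Kif11 was beyond 2-fold in BPA against control as well (2.09-fold, 1.32 to 3.36). For Ccna2 both counting intervals included 1.

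S phase members moved otherwise in these pairs. In BPA against control 13 of 15 lay below 0, with a median of -0.66 against 0.04 for all genes. In that pair 3 were at least 2-fold lower, against 3.01% of all genes. Mcm6 was 2.49-fold lower (counting interval 2.16 to 2.88), Cdt1 2.45-fold (2.08 to 2.89) and Mcm3 2.13-fold (1.76 to 2.58). In both agents against KRG the S phase median was 0.09, against 0.07 for all genes. There 10 of 15 lay above 0 (8 with TMM or DESeq2 scaling), and Cdc6 was 4.35-fold higher (2.70 to 7.32). On the log2(CPM + 1) scale, no S phase member was at least 2-fold lower there, against 5.89% of all genes. As plain ratios of CPM, Ccne2 was 2.01-fold lower there (1.59 to 2.54). Ccne1 (2.11-fold) and Mcm5 (2.00-fold) were then also lower in BPA against control. Rrm2, with few counts, was higher in BPA against control (2.07-fold, 0.85 to 5.55) and in both agents against KRG (2.72-fold, 1.30 to 6.22). Below 0 in both pairs were 5 of 15, against 25.9% of all genes (7 of 15 with TMM or DESeq2 scaling), and these were Ccne1, Ccne2, Mcm3, Mcm5 and Mcm6. The other S phase members were above 0 in at least 1 of the pairs.

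**Figure D3:**
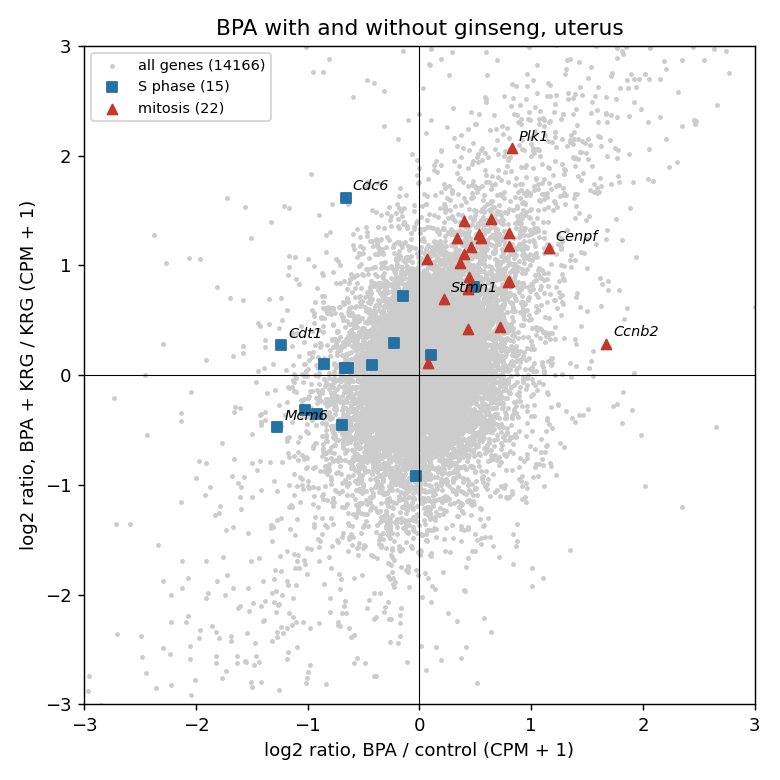
Log2 ratio of CPM + 1 for BPA against control (horizontal) and for both agents against KRG (vertical) in uterus, for all 14166 genes passing (grey), 15 S phase genes (blue squares) and 22 mitosis genes (red triangles). All mitosis genes lie above 0 on both axes, while 13 S phase genes lie left of 0. Of all genes, 287 lie beyond the axes.

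Ginseng was compared in the same way, with KRG against control and both agents against BPA. KRG against control uses the same control library as BPA against control. In that pair 20 of 22 mitosis members lay below 0, 6 were at least 2-fold lower against 2.58% of all genes, and 1 (Stmn1) was higher against 2.6%. The median was -0.74, against -0.12 for all genes. The 6 were Ccnb1 (3.15-fold lower, counting interval 1.97 to 5.21), Nusap1 (2.71-fold, 2.18 to 3.40), Tpx2 (2.71-fold, 1.80 to 4.16), Kif23 (2.70-fold, 1.87 to 3.96), Plk1 (2.64-fold, 2.03 to 3.44) and Prc1 (2.43-fold, 1.67 to 3.59). Kif23 is a motor of cytokinesis. As plain ratios of CPM, Kif11 (2.56-fold, 1.24 to 5.68) and Ube2c (2.03-fold, 1.67 to 2.47) were also lower in KRG against control. In both agents against BPA, 19 of 22 lay below 0 with a median of -0.33 against -0.05, Ccnb2 was 2.61-fold lower (1.77 to 3.92; 3.01% of all genes were at least 2-fold lower) and Stmn1 was higher (1.67%). In both pairs 18 of 22 lay below 0, against 34.8% of all genes (17 with TMM or DESeq2 scaling). S phase members had a median of -0.56 in KRG against control, with Cdc6 (3.28-fold, 1.99 to 5.62) and Cdt1 (2.22-fold, 1.89 to 2.61) lower, and 0.14 in both agents against BPA, where Cdc6 was 2.35-fold higher (1.62 to 3.46).

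A model with additive terms for BPA and KRG was fitted to the 14166 genes of uterus. With 4 libraries it leaves 1 residual degree of freedom and takes any interaction as error. With edgeR's quasi-likelihood test, no member passed an adjusted p of 0.05 for BPA, while 1.08% of all genes were called higher and 1.28% lower. At an unadjusted p under 0.05 there were 14 members, 11 of mitosis (all higher) and 3 of S phase (Mcm3, Mcm5 and Mcm6, all lower), among 37 tested, where 13.9% of all genes passed in either direction. The smallest adjusted p was that of Cenpf, 0.0722, with a log2 fold change of 1.14 ± 0.21 (SE). DESeq2's Wald test called 4 higher (Cenpf, Nusap1, Ube2c and Plk1) and 1 lower (Mcm6), against 7.92% of all genes in either direction. For KRG in uterus edgeR called no member and no gene at all. It had 4 members at an unadjusted p under 0.05 (Cenpf, Nusap1 and Ube2c lower, Stmn1 higher), against 4.48% of all genes. DESeq2 called Stmn1, with a log2 fold change of 1.40 and an adjusted p of 3.05e-06, and 0.565% of all genes.

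The epithelial and bladder lining sums, given above, were also lowest with KRG and higher in both libraries given BPA, and so moved with the mitosis members. Their part was not tested. They were highest with both agents, whereas 19 of 22 mitosis members were highest with BPA alone. The sums of skeletal muscle genes, 87.6, 175, 77.6 and 1430 CPM, and of macrophage genes, 259, 280, 215 and 311, were lowest with KRG and highest with both agents too. Tnni2 of the muscle list was instead lowest in control. Of the macrophage genes, Adgre1, Cd68 and Csf1r followed the order of the sum. C1qa made up most of the sum and was highest with BPA alone, at 206, 212, 161 and 210 CPM. Marco was highest with KRG alone and Clec4f in control. Squamous epithelium genes summed to 521, 767, 526 and 1184 CPM, higher in both libraries given BPA. Krt15 made up most of this sum (366, 627, 440 and 1063 CPM) and was highest with both agents, as were Krt5 and Trp63. Krt14, at 60.6, 33.6, 29.8 and 3.38 CPM, and Dsg3 were highest in control. Of the epithelial genes, Krt8, Krt18, Krt19 and Cdh1 were highest with both agents. Epcam was highest in control, at 224, 184, 141 and 159 CPM. The B cell sum, 67.2, 123, 54.5 and 33.0 CPM, and the fibroblast sum, 4329, 5793, 4451 and 4508 CPM, were highest with BPA alone, as most mitosis members were. Jchain made up most of the B cell sum, at 61.5, 117, 49.0 and 24.7 CPM. Of the fibroblast genes, Col1a1, Col1a2 and Pdgfra were highest with BPA alone, Dcn in control and Col3a1 with KRG alone. The part of these lists was not tested either.

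Liver had much lower levels of the mitosis members. Over the 4 libraries of each tissue, edgeR's quasi-likelihood test compared 36 members among 13790 genes, with the 4 treatments as the spread within a tissue. In uterus 29 members were higher, 10 of 14 S phase and 19 of 22 mitosis members, against 40.2% of all genes. Of the 36, 12 had a mean below 1 CPM in liver (Cdc6, Cenpf, Cenpe, Ccnb1, Ccnb2, Cdc20, Bub1b, Kif11, Kif23, Nusap1, Prc1 and Tpx2), entered the test through their uterus levels, and were all called higher there. Of the 24 that reached 1 CPM in liver, 17 were called higher in uterus, 9 of 13 S phase and 8 of 11 mitosis members, and 1 lower. Over all 36, the median log2 fold change was 3.01 for mitosis and 0.95 for S phase, against 0.19 for all genes. The mitosis median is not independent of the filter, since 11 of the 22 were below 1 CPM in liver. Of the 11 mitosis members reaching 1 CPM in liver, Cdk1 held the middle value, 2.16. Among those reaching 1 CPM in liver, Top2a differed by 4.28 ± 0.52 (SE, adjusted p = 7.66e-05). Prc1 differed by 4.41 ± 0.53 (adjusted p = 7.36e-05) and Cenpf by 4.27 ± 0.52 (adjusted p = 7.8e-05), both from the 12 below it. Mki67 differed by 2.89 ± 0.50 (adjusted p = 0.000657), and its lowest uterus library, at 9.70 CPM, was above its highest liver library, at 2.09 CPM.

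Among S phase members the tissue difference was largest for Cdc6, at 2.52 ± 0.53 (edgeR adjusted p = 0.00214), which had 0.206 to 0.523 CPM in liver. The MCM subunits differed by 0.96 (Mcm7) to 1.67 (Mcm5). Ccne1 (cyclin E1) was the exception, lower in uterus by edgeR with a log2 fold change of -1.26 ± 0.42 (adjusted p = 0.0222), where 32.2% of all genes were lower. Its levels overlapped between tissues on the CPM scale, 1.13 to 3.43 in liver and 1.24 to 2.62 in uterus. Scaled to column totals, which moves the median of all genes to 1.13, the difference was -0.32 (edgeR adjusted p = 0.485). The call was also lost without the KRG liver library (edgeR adjusted p = 0.0671), the BPA uterus library (0.0611) or the combined uterus library (0.0537). Not called were Ccne2, Cdt1, Tyms, Cenpa, Ccna2 and Aurka. With column totals 65.6% of all genes were higher in uterus, as were 35 of 36 members, and none was lower.

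**Figure D4:**
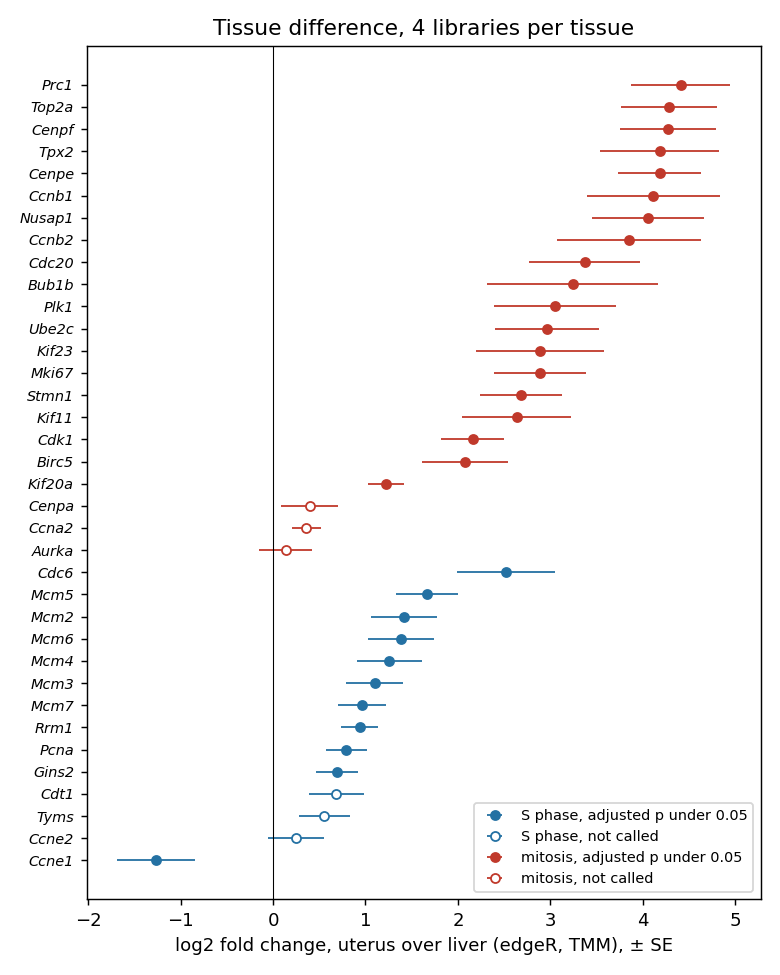
Log2 fold change of uterus over liver for the 36 tested members (edgeR, TMM scaling, 4 libraries per tissue), with bars of 1 SE, mitosis in red above and S phase in blue below, filled where the adjusted p was under 0.05. Mitosis genes reach 4.41 (Prc1) and S phase genes 2.52 (Cdc6), both genes with a mean below 1 CPM in liver. Ccne1 alone is called on the liver side.

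In liver itself, members were highest in control. Of the 24 passing, 16 were highest there (8 of 13 S phase and 8 of 11 mitosis members), against 26.6% of all 11473 genes, and none was lowest there, against 19%. With KRG 3 of 24 were highest, against 22.7%. The same counts for control were found with TMM and DESeq2 scaling. Mki67, Top2a and Plk1 passed the filter only through the control library, so their place among the 16 is not independent of the filter. The S phase sum was 83.6, 57.6, 65.7 and 58.1 CPM and the mitosis sum 80.8, 55.0, 50.6 and 49.5.

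Birc5 (survivin, of the chromosomal passenger complex) was at 9.48, 4.93, 3.02 and 1.94 CPM in liver, with 145, 64, 44 and 24 counts. Cdk1 was at 7.98, 2.78, 5.62 and 3.48 CPM, and Ube2c at 3.92, 1.54, 1.10 and 0.566. Both also had their highest level in control. Top2a was at 3.07, 0.540, 0.959 and 0.647 CPM, Plk1 at 3.01, 0.848, 0.411 and 0.727, and Mki67 at 2.09, 1.31, 0.274 and 1.29, which rests on 4 counts in the KRG library. Of S phase, Mcm4 was at 7.91, 1.77, 5.35 and 4.28 CPM, Tyms at 6.34, 3.08, 7.81 and 4.36, and Mcm6 at 8.50, 6.86, 3.70 and 5.01. Mcm4 was low with BPA and Mcm6 with KRG, so the helicase subunits did not share an order in liver. Pcna was at 3.34, 2.62, 4.25 and 3.48 CPM, Mcm2 at 1.504, 2.24, 0.891 and 1.37 and Ccnb1 at 0.392, 0.0771, 0.137 and 0.

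**Figure D5:**
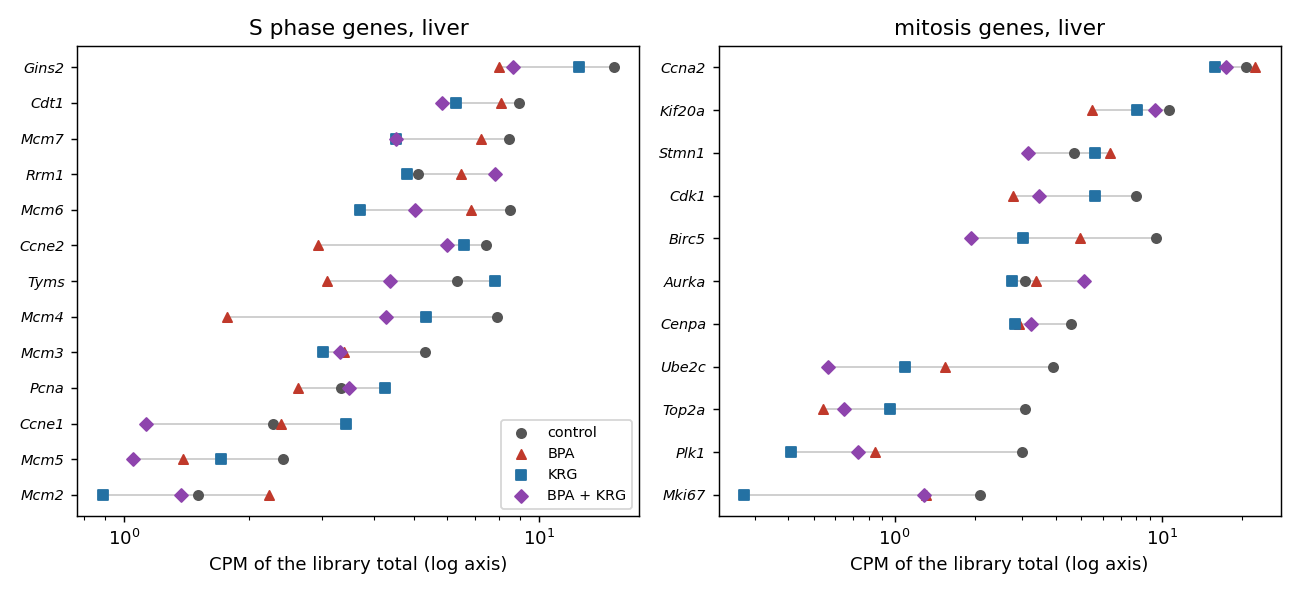
Level of each passing member in the 4 liver libraries, in CPM on a log axis, S phase genes on the left and mitosis genes on the right, with 1 point per library. Control (grey circles) is the highest point for 16 of 24 genes and the lowest for none.

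In BPA against control in liver, 5 members were at least 2-fold lower and none higher on the log2(CPM + 1) scale, against 3.76% and 1.4% of all genes. They were Top2a (5.70-fold, counting interval 2.56 to 14.9), Mcm4 (4.46-fold, 2.84 to 7.31), Plk1 (3.55-fold, 1.81 to 7.60), Cdk1 (2.87-fold, 1.97 to 4.29) and Ccne2 (2.54-fold, 1.75 to 3.78). Members had a median of -0.51, against -0.11 for all genes. Top2a and Plk1 passed the filter only through the control library, so the count of 5 is not independent of the filter. In KRG against control 6 were lower and none higher, against 1.39% and 1.38%. These were Mki67 (7.63-fold, 2.71 to 29.7), Plk1 (7.32-fold, 3.12 to 21.0), Ube2c (3.58-fold, 2.03 to 6.66), Top2a (3.20-fold, 1.73 to 6.30), Birc5 (3.14-fold, 2.23 to 4.51) and Mcm6 (2.30-fold, 1.66 to 3.22). Of these, Mki67, Plk1 and Top2a passed only through the control library. These comparisons share the control library.

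On the log2(CPM + 1) scale, the pairs without the control library had fewer such members in liver. In both agents against KRG, Ccne1 was 3.03-fold lower (counting interval 1.65 to 5.93; 1.84% of all genes were lower) and the mitosis median was 0.12 against 0.07 for all genes. In both agents against BPA, Birc5 was 2.54-fold lower (1.57 to 4.25, with 1.51% of all genes lower), and no member was 2-fold higher on that scale (3.09% of all genes). As plain ratios of CPM, more passing members lay beyond 2-fold. The share of all genes was not computed for plain ratios, so these members cannot be set against it. In both agents against BPA, Mcm4 (2.42-fold, 1.46 to 4.13) and Ccne2 (2.04-fold, 1.36 to 3.10) were higher. Ube2c (2.73-fold), Ccne1 (2.11-fold) and Stmn1 (2.03-fold) were lower. Mki67 was 4.72-fold higher (1.52 to 19.4) in both agents against KRG. On the log2(CPM + 1) scale, Birc5 passed 2-fold on the low side in each of the KRG pairs, as did 0.244% of all genes. No member did so for BPA, in either direction (0.183% of all genes higher, 0.384% lower). The edgeR additive model called no liver member for BPA or for KRG, with 4 members at an unadjusted p under 0.05 for each and all of them lower. At that threshold 5.19% of all genes passed for BPA and 3.13% for KRG, in either direction. Of all genes, 0.0174% were called lower for BPA and 0.0174% higher for KRG. DESeq2 called no member either, against 0.741% of all genes for BPA and 0.75% for KRG. The smallest adjusted p was 0.627, that of Birc5 for KRG, at a log2 fold change of -1.56 ± 0.30 (SE).

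The BPA effect was compared between tissues by the tissue by BPA interaction over all 8 libraries. No member was called by edgeR, against 0.384% of all genes higher in uterus and 1.62% lower, and 13 of 36 had an unadjusted p under 0.05, against 11.1% of all genes in either direction. Of these, 10 were mitosis members, all with the larger log2 fold change in uterus. Among the 10, Cenpf, Ccnb1, Cdc20, Bub1b and Nusap1 had a mean below 1 CPM in liver and entered the test through their uterus levels. Their liver side rests on few counts, such as 12, 0, 1 and 0 for Bub1b. Ube2c had the smallest adjusted p, 0.0787, at 2.19 ± 0.42 (SE). DESeq2 called 6 (Ube2c, Cenpf, Nusap1, Top2a, Birc5 and Cdk1), all higher in uterus, against 5.13% of all genes in either direction. Of these, Cenpf and Nusap1 were below 1 CPM in liver. For the KRG interaction edgeR called no member and no gene at all, and DESeq2 no member and 0.674% of all genes. By edgeR 4 members had an unadjusted p under 0.05, against 4.83% of all genes. Cdc20 was among these and below 1 CPM in liver.

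In 7 members the last 500 bases at the 3′ end are overlapped by an exon of a gene on the opposite strand (GENCODE M21). Plk1 and Aurka have a converging gene nearby (Ern2 and Fam210b) without such an overlap. Whether reads were counted by strand is not given in the sources used here. Counts of Ccna2 were 0.853 to 0.976 times those of Exosc9 in every library, of Kif20a 0.967 to 1.08 times those of Cdc23, of Gins2 0.800 to 0.915 times those of Gse1 and of Ccne2 0.690 to 1.00 times those of Ints8. Reads of these genes and their partners therefore cannot be told apart. Mcm7 (over Cops6), Cdc20 (over Elovl1) and Prc1 (over Rccd1) did not keep such a ratio. Without the 7, 16 of 18 mitosis members of uterus were lowest with KRG and 15 highest with BPA, and 9 of 12 S phase members were highest in control. In liver, 5 of 10 S phase and 7 of 9 mitosis members were then highest in control.

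Other genes of the cell cycle were taken from 3 lists. Of 48 other mitosis genes 41 passed in uterus, and 4 were at least 2-fold higher and none lower in BPA against control, where 3.88% and 3.01% of all genes were. The median was 0.28, against 0.04. Cep55, which recruits the abscission machinery, was at 2.76, 11.2, 2.16 and 4.73 CPM. Cdca3 was at 5.08, 13.8, 3.46 and 7.23 CPM, Ckap2l, a spindle protein, at 10.3, 17.3, 4.003 and 11.6, and Kif2c, a microtubule depolymerase, at 3.06, 6.34, 0.308 and 3.04. These 4 had the largest range over the uterus libraries, and each was highest with BPA and lowest with KRG. Cep55 and Cdca3 are among the 4 genes at least 2-fold higher in BPA against control, and Ckap2l and Kif2c are not. In both agents against KRG 9 of the 41 were higher and 1 lower, against 8.36% and 5.89% of all genes, with a median of 0.73 against 0.07. In KRG against control none was higher and 5 were lower, against 2.6% and 2.58%, with a median of -0.50 against -0.12.

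Of 31 other S phase genes 30 passed in uterus, and 1 was lower and none higher in BPA against control, against 3.01% and 3.88% of all genes, with a median of -0.33 against 0.04. Uhrf1, which maintains DNA methylation behind the fork, was at 8.89, 3.35, 4.003 and 6.56 CPM, and Gins1 at 1.94, 0.583, 1.08 and 1.49, both highest in control. Dbf4, the activator of the CDC7 kinase, was at 9.49, 15.7, 5.77 and 10.8 CPM, in the order of the mitosis genes. Gmnn (geminin), the inhibitor of CDT1, was at 11.4, 11.1, 17.4 and 7.97.

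Of 29 genes of G1 control and cell cycle arrest 28 passed in uterus, with none at least 2-fold different in BPA against control or in KRG against control, where 3.88% and 2.6% of all genes were higher and 3.01% and 2.58% lower. The inhibitor Cdkn1a (p21) was at 7.92, 16.0, 8.08 and 27.6 CPM, higher in both libraries given BPA. Cdkn1c (p57) was at 66.3, 50.1, 41.1 and 30.8 CPM, Cdkn2c (p18) at 14.9, 11.1, 26.1 and 13.1, and Rbl2 (p130, of the DREAM complex) at 38.3, 51.7, 23.4 and 46.2. EdgeR's additive model called no gene of the 3 lists for either agent in either tissue. By the tissue comparison it called 27 of 34 other mitosis genes higher in uterus and 2 lower. It called 11 of 26 other S phase genes higher and 5 lower, and 12 of 27 of the G1 list higher and 2 lower. In liver only 18 other mitosis, 23 other S phase and 26 G1 genes reached 1 CPM. Some genes of each list, mostly mitosis genes, thus entered this test through their uterus levels. These counts are therefore not independent of the filter. Of all genes, 40.2% were called higher and 32.2% lower there.

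In liver, cyclin D1 (Ccnd1), which couples growth signals to G1, was at 361, 49.9, 81.2 and 122 CPM, highest in control like most members. E2f8, a repressor of the E2F family, was at 5.36, 1.31, 0.822 and 1.45 CPM, and Ncapg, a condensin subunit, at 4.32, 0.0771, 1.99 and 2.10. Cdkn1a was at 0.654, 1.16, 2.47 and 0.404 CPM and Gadd45a at 2.29, 0.694, 0.411 and 2.02. Wee1, the kinase that restrains CDK1, was at 14.3, 7.17, 14.9 and 10.02 CPM, and Slbp, the histone mRNA binding protein, at 10.01, 5.17, 13.0 and 10.02, both lowest with BPA. Of the other named genes of liver, Dbf4 was at 3.73, 1.31, 4.45 and 3.31, Gmnn at 11.6, 7.55, 11.0 and 17.7 and Pold1 at 2.55, 0.694, 0.891 and 1.45 CPM. Spc25, of the kinetochore, was at 3.27, 2.24, 5.96 and 3.80 CPM and Hmgb2 at 2.88, 1.39, 2.26 and 3.31, and these genes shared no single order over the libraries.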

How the data were processed

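Deposited values were whole-number counts per gene, raw per the values of the files (1 file per library, 23282 gene rows by symbol, 44 repeating a symbol). Libraries were made from 500 ng of total RNA with a Lexogen QuantSeq kit, per the labels' protocols. Bowtie2, edgeR and mm10 are listed in the submitters' processing notes, with no versions. Not given in the sources used here are the counting program, its strand setting and its handling of ambiguous reads. The Rn45s row held 8.30% to 12.4% of a library and stayed in the totals.

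CPM of column totals was computed from the deposited counts. Ratios of 2 libraries are log2(CPM + 1), for genes whose mean level in the tissue reached 1 CPM, with a call at 2-fold. Folds with an interval are ratios of CPM with exact Clopper-Pearson 95% intervals; without molecular identifiers, reads can be copies of the same molecule, so these may be too narrow. Tests used edgeR 4.0.16 (quasi-likelihood, TMM, Benjamini-Hochberg over all genes) in R 4.3.3, with DESeq2 1.42.0 as the alternative, and were tested on simulated data. P-values measure the spread that each model leaves between these libraries, which differ in treatment, and not a spread between animals or replicates. Alternatives were other scalings, filters, pseudocounts, the DESeq2 test, leaving out each library in the tissue comparison and, added after seeing the data, leaving out the 7 overlapped members.

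The members, gene lists, marker lists and the rule for named genes were chosen with earlier results of these data known. Named were Mki67, Top2a, Cdk1, Ccnb1, Pcna and Mcm2, the 8 S phase and 10 mitosis members of largest range in each tissue, the 4 of largest range from each other list, and members called in a test. Others are named where a count or a family is spelled out. Promoters are from RefSeq.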

Additional observations from a re-analysis of the deposited data

How the results depend on the processing

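The labels give 1 library per group, with no replicate number and no animal to pair on. Matching the libraries of the tissues by treatment, with the treatment group as a term, gave 30 members higher in uterus (10 of S phase and 20 of mitosis) and 1 lower (Ccne1, edgeR adjusted p 0.0278). No member ratio or test reversed its direction where it had been called. With 1 library per group, low counts limit the liver values most. In the tissue comparison, 29 members were higher in uterus and 1 lower. A mean of at least 10 CPM left 17 members tested and 17 higher, with 0 lower, and column totals left 0 lower. Leaving out single libraries gave 28 to 30 higher and 0 to 1 lower. For BPA in uterus, where edgeR called 0 members, column totals or no filter called 1 higher (Cenpf, adjusted p 0.0499 and 0.036), and DESeq2 called 4 higher and 1 lower. DESeq2 called 1 higher for KRG in uterus and 6 higher for the BPA interaction, where edgeR called 0.

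Counts of members at least 2-fold different depended most on the pseudocount and the filter, since both act on low genes. With a pseudocount of 5 CPM the uterus mitosis counts became 1 higher in BPA against control (2 before), 3 higher in both against KRG (13 before), 1 lower and 0 higher in KRG against control (6 and 1 before) and 0 lower in both against BPA (1 before). The S phase counts became 0 higher in both against KRG and in both against BPA and 0 lower in KRG against control. In liver all counts became 0. With a mean of at least 10 CPM the uterus mitosis counts were 1, 6 and 2 in the first 3 pairs and 0 lower in both against BPA. The S phase counts were 0 higher in both against KRG and in both against BPA and 1 lower in KRG against control. In liver 1 member of each class passed that filter, and all counts were 0. A pseudocount of 0.25 CPM gave 2 S phase members higher in both against KRG in uterus. In liver it gave 1 mitosis member higher in both against KRG, and 1 S phase member higher and 2 mitosis members lower in both against BPA. TMM or DESeq2 scaling gave 1 S phase member lower in KRG against control in uterus, 1 lower in both against KRG in uterus (Ccne2) and 0 lower in KRG against control in liver. Without a filter, 1 mitosis member was higher in both against BPA in liver. Without the 7 overlapped members, 1 S phase member was lower in BPA against control in liver. The cause of the remaining shifts was not tested. Of 312 recomputed counts, 261 were equal to the reported count, or close enough not to be given here. No class median of uterus changed sign under the alternatives run. In liver the mitosis median of both against KRG, 0.12 as reported, was -0.16 without a filter and -0.25 without the overlapped members. That of BPA against control, -0.82, was 0.11 for the single mitosis member (Ccna2) with a mean of at least 10 CPM. The S phase median of both against BPA, -0.03, was 0.10 and 0.03 with that filter and with none.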
